A study of Mus musculus with 24 samples.

Results

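Gfap, Vim, Nes, Lcn2, Serpina3n, Cd109, S100a10, Ptx3, Tm4sf1 and Emp1, 10 genes known to rise in reactive astrocytes, were followed in the hippocampal CA1 subfield of mice after a pilocarpine-induced status epilepticus (SE), a prolonged seizure after which chronic epilepsy develops. They were taken by gene symbol, and all 10 were among the 18647 genes of the count table and among the 18153 genes tested. Adult C57Bl/6N mice of at least 60 days and 20 g received scopolamine methyl nitrate (1 mg/kg), 20 min later 335 mg/kg pilocarpine, and diazepam (4 mg/kg) 40 min after SE onset. Only animals that developed SE entered the 5 SE groups, with times of 6, 12, 24 and 36 h up to 72 h. Controls (Ctr, at 12, 36 and 72 h) received the same scopolamine and diazepam with saline in place of pilocarpine. Each of the 8 groups held 3 polyA RNA-seq libraries from microdissected CA1, and the 6 h and 24 h SE groups had no controls of their own time.

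Astrocytes answer injury, seizures and inflammation by becoming reactive: they enlarge, build up intermediate filaments and secrete acute-phase and matrix proteins. Signals through the IL-6 family of cytokines and STAT3, and through NF-κB, are known inducers of this state. Gfap, Vim and Nes encode intermediate filament proteins, with Nes otherwise typical of neural progenitors. Lcn2 encodes a secreted lipocalin that binds iron-carrying siderophores, Serpina3n a secreted serine protease inhibitor and Ptx3 a secreted long pentraxin of innate immunity. Cd109 encodes a membrane-anchored protein that binds TGF-β, S100a10 the partner of annexin A2, and Tm4sf1 and Emp1 small membrane proteins with 4 transmembrane segments. Gfap, Vim, Lcn2 and Serpina3n are commonly counted among pan-reactive genes, whereas Cd109, S100a10, Ptx3, Tm4sf1 and Emp1 come from a set described after ischemia and often called A2. Several of the 10 are also made by endothelial, immune or progenitor cells.

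Some of the genes had their highest level after SE at 72 h and others at 24 h. The promoters of the 3 genes whose mean at 72 h was the smallest share of that at 24 h, Ptx3, Tm4sf1 and Emp1, are shown for that reason. Each window is the 250 bases before the RefSeq transcript start, read 5′ to 3′ on the strand of the gene and placed on GRCm39 by exact match (Ptx3 at chr3:66127058-66127307, plus strand; Tm4sf1 at chr3:57209410-57209659, minus strand; Emp1 at chr6:135339679-135339928, plus strand). Capitals mark matches to motifs of factors known from reactive astrocytes.
Ptx3: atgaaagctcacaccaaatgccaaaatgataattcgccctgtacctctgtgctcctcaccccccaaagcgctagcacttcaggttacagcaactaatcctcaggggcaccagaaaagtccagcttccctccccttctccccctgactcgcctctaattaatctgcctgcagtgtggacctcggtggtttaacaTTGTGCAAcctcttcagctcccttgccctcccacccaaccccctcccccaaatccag
Tm4sf1: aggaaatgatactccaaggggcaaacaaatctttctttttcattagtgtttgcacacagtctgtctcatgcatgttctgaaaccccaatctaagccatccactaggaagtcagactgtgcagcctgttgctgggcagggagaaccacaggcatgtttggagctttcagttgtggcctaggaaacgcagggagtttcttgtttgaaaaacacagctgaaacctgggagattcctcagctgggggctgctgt
Emp1: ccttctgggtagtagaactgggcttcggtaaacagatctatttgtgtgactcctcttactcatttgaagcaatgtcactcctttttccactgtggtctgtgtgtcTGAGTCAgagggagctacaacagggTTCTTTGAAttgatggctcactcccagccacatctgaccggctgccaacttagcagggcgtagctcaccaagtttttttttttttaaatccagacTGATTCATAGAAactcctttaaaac
The motifs searched were STAT (TTCNNNGAA), AP-1 (TGANTCA), C/EBP (TTGCNNAA), NF-κB (GGGANTTTCC) and the CArG box bound by serum response factor, on both strands. RefSeq gave Emp1 a further window at a later start (chr6:135344241-135344490), which held no match to any of them. In the Emp1 window shown, STAT matches began 120 and 22 bases before the start, and AP-1 matches 145 and 25 bases before it, the last of which overlapped the STAT match at 22. In the Ptx3 window 1 C/EBP match, TTGTGCAA on the gene strand, began 57 bases before the start, and the Tm4sf1 window held no match. Of the 8 genes with a window in the RefSeq table (all but Cd109 and S100a10), Lcn2 was the only other one with a match, a C/EBP match (TTGCTCAA) 216 bases before the start. Over all 32851 windows of this length, 7.02% held the STAT motif, 6.75% AP-1, 9.56% C/EBP, 0.356% NF-κB and 1.47% the CArG box. These matches describe letters in a window and are no measure of binding.

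The libraries held 2663936 to 30133731 counted fragments (median 13521590), with the shallowest among the 72 h controls. Levels are given as CPM, counts scaled to the size of each library after TMM normalization. The dissected tissue carried neuronal and CA1 markers throughout. The summed CA1 pyramidal markers were lowest in SE 72 h replicate 1, at 302 CPM against 626 and 667 CPM in replicates 2 and 3. Its CA3 and dentate granule markers summed to 385 CPM, against 161 and 174 CPM in those replicates. The 12 astrocyte markers chosen for the check (among them Aqp4, Slc1a2 and Gja1) summed to between 4000 and 8650 CPM. In 6 libraries the markers of sensory ganglia other than Tubb3 (such as Prph and Calca, not expected in CA1) summed to between 381 and 2030 CPM, against 6.4 to 85.1 CPM in the other 18. They were Ctr 72 h replicate 2, SE 6 h replicate 3, SE 12 h replicate 1, SE 36 h replicate 3 and SE 72 h replicates 1 and 2. The numbers in the sample labels fall into 3 ranges, and at 72 h SE and controls have no range in common. All 3 SE 24 h libraries lie in the range from 92 to 104, which holds no control library. These ranges and SE therefore cannot be told apart at either time. The labels number the replicates without saying that each is a separate animal, so p-values measure the spread between these samples. In such bulk tissue, fewer cells of a type and less RNA per cell cannot be told apart.

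All 10 genes were higher after SE at each of the 5 time points (quasi-likelihood test of edgeR, p adjusted by Benjamini-Hochberg over all genes tested and at most 0.05, absolute log2 fold change of at least 0.66). Against the controls of the same time, their log2 fold changes ranged at 12 h from 1.97 to 7.32, at 36 h from 3.08 to 6.68 and at 72 h from 1.15 to 5.75. Of all genes tested, 13.9% were higher at 12 h, 12.7% at 36 h and, at the last time, 15.2%. With the mean of all 3 control groups as the reference, they ranged from 1.09 to 5.03 at 6 h and from 2.85 to 8.24 at 24 h, where 15.8% and 14.9% of genes were higher. Both of these comparisons share their controls with the others. At all 5 times 662 genes, or 3.65% of those tested, were called higher. In order of time, the median log2 fold change of the 10 genes was 2.50, 3.08, 4.24, 5.01 and 4.16, while that of all genes tested stayed between 0.003 and 0.097. Without Ctr 72 h replicate 2, and likewise without all 6 libraries with ganglion markers, all 10 genes were called at every time, although the latter left 1 SE library at 72 h, which was assumed to vary like the other groups. Within 1 range of label numbers (109 to 122), the 2 SE libraries of 36 h lay above the 3 controls of that time by a mean difference in log2 CPM of 2.94 for S100a10 up to 6.37 for Lcn2. In the range from 162 to 169, with 1 library on each side at 12 h and no test, the difference was 0.90 for Cd109 up to 7.73 for Lcn2.

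**Figure D1:**
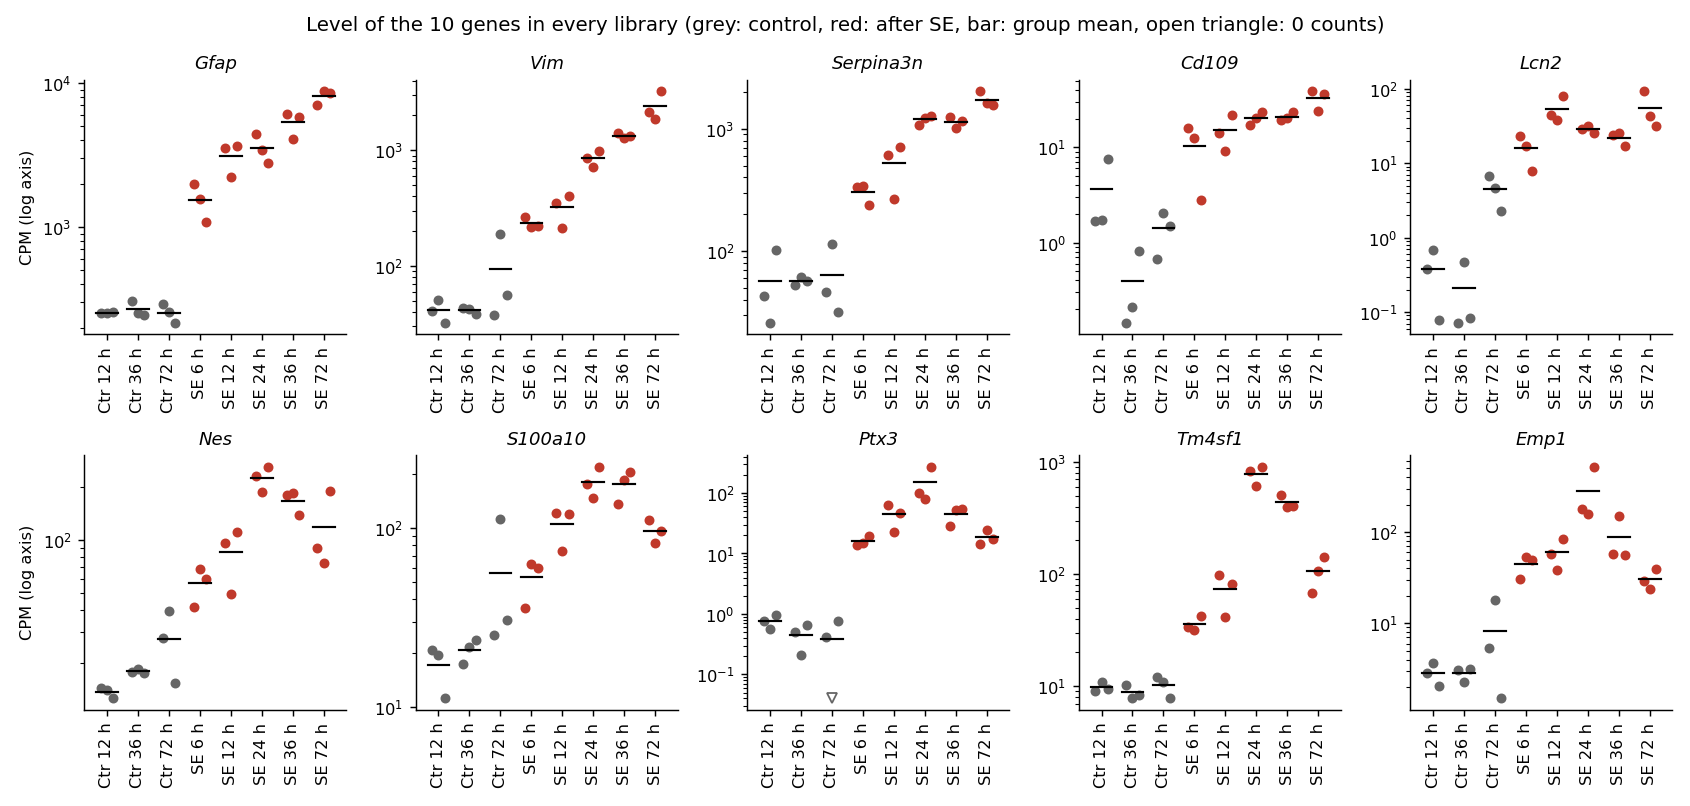
CPM of each gene (log axis) in every library by group, with grey points for controls, red points for SE libraries, black bars for group means and an open triangle for the 1 control library without a Ptx3 count. All 15 SE libraries lay above all 9 control libraries for 8 of the 10 genes, and the overlap was in Cd109 and S100a10.

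Across the whole series, all 15 SE libraries lay above all 9 control libraries for 8 of the 10 genes, as they did for 3.03% of genes tested. Cd109 missed this by 1 SE library, whereas only 8 of the 15 SE libraries were above every control for S100a10. Between groups of the same time, the 10 genes did not overlap at 12 h and 36 h, and at 72 h all but S100a10 did not. The share of all genes whose 3 SE libraries exceeded their 3 controls was 24.5%, 25.8% and 19.4% at these times. At 6 h, Cd109 and S100a10 overlapped the 9 controls, and at 24 h none of the genes did. The share of all genes was not computed for these times, so this is a description only.

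Gfap (chr11:102778159-102791738, minus strand of GRCm39), the main filament protein of mature astrocytes, had the highest level per length of transcript of the 10 genes in controls. Its CPM was 254, 253 and 256 at Ctr 12 h, 309, 252 and 245 at Ctr 36 h and 290, 256 and 217 at Ctr 72 h. After SE it was 1980, 1560 and 1083 at 6 h, 3538, 2228 and 3666 at 12 h, 4411, 3408 and 2809 at 24 h, 6058, 4109 and 5829 at 36 h and 7078, 8779 and 8594 at 72 h. The control libraries were close to each other and each SE library was above all of them, from the first time point on. The group mean was 31.4 times the mean of all controls at 72 h, and the log2 fold change there was 5.0 ± 0.26 (standard error, adjusted p = 2.12e-10). Between 6 h and 12 h Gfap rose by a log2 fold change of 1.03 ± 0.22 (adjusted p = 0.0147), a call that was lost without SE 6 h replicate 3 (log2 fold change 0.83) and without replicates 1 or 3 of SE 12 h. The 3 later steps, between 0.17 and 0.61, did not pass the test.

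Vim (chr2:13578738-13587639, plus strand), which copolymerizes with Gfap, was high late as well. Its CPM was 40.7, 51.3 and 32.3 at Ctr 12 h, 43.2, 42.1 and 38.8 at Ctr 36 h and 38.0, 189 and 56.6 at Ctr 72 h, where replicate 2, the library highest in ganglion markers, stood apart. The SE libraries held 264, 218 and 220 at 6 h, 350, 213 and 400 at 12 h, 862, 722 and 979 at 24 h, 1406, 1276 and 1314 at 36 h and 2132, 1879 and 3228 at 72 h. The lowest SE library was still above the highest control. Vim rose between 12 h and 24 h by 1.40 ± 0.26 (log2 fold change, adjusted p = 0.00262). The log2 fold change at 72 h was 5.07 ± 0.31 and became 5.70 ± 0.32 without Ctr 72 h replicate 2, a fold change more than 1.5 times as large. In the GENCODE annotation used for the symbols, a noncoding gene overlaps Vim on the other strand, which unstranded counting cannot separate. The count table did not hold that gene.

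Nes (chr3:87878385-87887758, plus strand), the filament protein of neural progenitors, had its highest mean at 24 h. Its CPM was 14.5, 14.2 and 12.6 at Ctr 12 h, 17.8, 18.6 and 17.6 at Ctr 36 h and 27.7, 39.7 and 15.4 at Ctr 72 h. After SE the libraries held 41.6, 68.3 and 60.2 at 6 h, 96.1, 49.1 and 111 at 12 h, 228, 186 and 258 at 24 h, 180, 183 and 138 at 36 h and 90.2, 74.3 and 188 at 72 h. Replicate 3 at 72 h was as high as the 36 h libraries, and the other 2 were below all of these. The log2 rise from 12 h to 24 h was 1.40 ± 0.31 (adjusted p = 0.00984), whereas the later steps of -0.42 and -0.50 did not pass the test. Without SE 72 h replicate 3 the step from 36 h to 72 h was -1.03 and passed it (adjusted p = 0.0311). The other 2 SE libraries of 72 h are among the 6 with ganglion markers. Without these 6 libraries that step was 0.05, and the log2 fold change of Nes over control at 72 h was 3.02 instead of 2.11. The summed progenitor and immature neuron markers, of which 3 of 9 were higher and 1 lower at 72 h, were 262 to 281 CPM at SE 72 h and 159 to 163 CPM at Ctr 72 h. The part of these cells in the level of Nes was not tested.

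Among the secreted products, Serpina3n (chr12:104372810-104380597, plus strand) had the course nearest to that of Gfap (root mean square difference 0.454 on the log2 scale over the 15 SE libraries). Its CPM was 42.9, 26.1 and 102 at Ctr 12 h, 52.7, 61.9 and 57.4 at Ctr 36 h and 46.7, 114 and 31.9 at Ctr 72 h. After SE the level was 333, 341 and 236 at 6 h, 608, 268 and 706 at 12 h, 1079, 1228 and 1268 at 24 h, 1245, 1009 and 1151 at 36 h and 2018, 1609 and 1551 at 72 h. No SE library reached down to the controls. The log2 fold change was 3.22 ± 0.36 at 12 h (3.94 without Ctr 12 h replicate 3) and 4.94 ± 0.40 at 72 h, and the step from 12 h to 24 h of 1.17 ± 0.34 passed the test (adjusted p = 0.0352). That step was lost without any 1 of 4 libraries, SE 12 h replicate 2 and the 3 of SE 24 h. Serpina3n belongs to a family of closely similar genes, and reads that fit several of them may have been lost or misplaced, which was not tested.

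Lcn2 (chr2:32274645-32278264, minus strand), the lipocalin, had 2 high points, at 12 h and at 72 h. Its CPM was 0.379, 0.691 and 0.0773 at Ctr 12 h, 0.0719, 0.470 and 0.0822 at Ctr 36 h and 6.67, 4.604 and 2.25 at Ctr 72 h. The values after SE were 23.4, 17.1 and 7.94 at 6 h, 44.3, 38.2 and 80.3 at 12 h, 29.2, 31.2 and 25.4 at 24 h, 23.6, 25.2 and 16.9 at 36 h and 92.5, 43.6 and 32.0 at 72 h. All 3 controls of 72 h were above the other 6 controls and below every SE library. Lcn2 had the largest log2 fold change of the 10 genes at 12 h, 7.32 ± 0.65 (adjusted p = 1.21e-07), against controls with 4, 10 and 2 counts, and 8.28 or 6.58 without control replicate 2 or 3. At 36 h it was 6.47 ± 0.68, and 8.004 without Ctr 36 h replicate 2. At 72 h it was 3.49 ± 0.51, smaller by 3.83 ± 0.85 on the log2 scale than at 12 h (adjusted p of the difference 0.00351). Of the steps between SE groups, that from 6 h to 12 h (1.76 ± 0.44, adjusted p = 0.0278) was lost without SE 6 h replicate 2 or 3 or SE 12 h replicate 3. The step from 36 h to 72 h (1.37 ± 0.43, adjusted p = 0.0486) was lost in 21 of 37 alternatives, among them those without any 1 library of SE 36 h and without SE 72 h replicate 1 or 2.

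Markers of neutrophils, another source of Lcn2, were low but not absent. The 7 of 10 that the table held summed to 0.0691 to 22 CPM in controls and 0.394 to 19.7 CPM after SE, and both highest values were in libraries with ganglion markers. Of the 7, 4 had no count in any library of Ctr 12 h. Of the 6 tested, 2 were higher at 12 h, 1 at 36 h and 3 at 72 h, and 1, 0 and 0 of 7 without Ctr 72 h replicate 2. In Ctr 72 h they summed to 0.506, 22 and 4.12 CPM, whereas Lcn2 was highest in replicate 1. At SE 72 h they summed to 19.7, 11.3 and 0.536 CPM, the same order as that of Lcn2, and at SE 12 h to 10.0, 1.49 and 5.82 CPM, where Lcn2 was highest in replicate 3. Without the 6 libraries with ganglion markers, SE 72 h replicates 1 and 2 among them, Lcn2 at 72 h was still called against control (log2 fold change 2.59) and its step from 36 h was 0.39. The part of neutrophils in the level of Lcn2 was not tested.

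Cd109 (chr9:78522735-78623558, plus strand), the TGF-β binding protein, was low in every group. Its CPM was 1.70, 1.73 and 7.62 at Ctr 12 h, 0.144, 0.209 and 0.822 at Ctr 36 h and 0.675, 2.05 and 1.5 at Ctr 72 h. After SE it was 15.9, 12.6 and 2.80 at 6 h, 14.3, 9.25 and 22.1 at 12 h, 17, 20.5 and 23.3 at 24 h, 19.4, 20.4 and 23.5 at 36 h and 38.8, 24.3 and 36.2 at 72 h. SE 6 h replicate 3 lay below Ctr 12 h replicate 3, the control that also carried the highest summed CA3 and dentate granule markers (814 CPM, against 236 to 322 CPM in the other 8). The mean was higher at each later time, but no step passed the test. The log2 fold change was 1.97 ± 0.55 at 12 h (adjusted p = 0.00741), then 5.83 ± 0.74 at 36 h and finally 4.84 ± 0.72, and the call at 12 h was lost when only the 2 compared groups were fitted. Without Ctr 12 h replicate 3 it was 3.13 at 12 h, and without Ctr 36 h replicate 3 it was 6.80 at 36 h. In the GENCODE annotation used for the symbols, a pair of noncoding genes overlap Cd109 on the other strand, which unstranded counting cannot separate. The count table did not hold them.

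S100a10 (chr3:93462213-93474510, plus strand), the annexin A2 partner, had the smallest log2 fold change of the 10 genes at every time but 12 h. Its CPM was 20.9, 19.5 and 11.1 at Ctr 12 h, 17.3, 21.6 and 23.6 at Ctr 36 h and 25.2, 113 and 30.8 at Ctr 72 h. The SE libraries held 35.7, 63.2 and 60.1 at 6 h, 121, 74.7 and 120 at 12 h, 176, 147 and 220 at 24 h, 137, 186 and 207 at 36 h and 111, 82.3 and 96.4 at 72 h. Ctr 72 h replicate 2 was above all 3 SE libraries of that time, and the remaining controls were below every SE library. The log2 fold change was 2.61 ± 0.26 at 12 h and 3.08 ± 0.27 at 36 h, against 1.15 ± 0.26 at 72 h (adjusted p = 0.0023). At 72 h it was 1.83 ± 0.27 without that library, but 0.68 and not called without Ctr 72 h replicate 1, and 0.77 and not called without the factor of unwanted variation.

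Ptx3 (chr3:66127331-66133226, plus strand), the pentraxin, was hardly detected in controls and had the largest log2 fold change of the 10 genes at 24 h. Its CPM was 0.757, 0.553 and 0.967 at Ctr 12 h, 0.504, 0.209 and 0.657 at Ctr 36 h and 0.422, 0 and 0.750 at Ctr 72 h, the last from 5, 0 and 2 counts. After SE the level was 13.7, 14.8 and 19.7 at 6 h, 63.4, 23 and 46.8 at 12 h, 100.2, 78.8 and 270 at 24 h, 28.7, 51.6 and 54.2 at 36 h and 14.4, 24.9 and 17.3 at 72 h. Replicate 3 of SE 24 h was far above the other 2, and the 72 h libraries were back near those of 6 h. The log2 fold change at 24 h was 8.24 ± 0.40 (adjusted p = 3.75e-12), or 7.5 without that library. At 72 h it was 5.75 ± 0.75, or 6.52 without Ctr 72 h replicate 1. Ptx3 rose from 12 h to 24 h (1.77 ± 0.41, adjusted p = 0.0113), a call lost without SE 24 h replicate 3. It fell from 24 h to 36 h by 1.74 ± 0.41 on the log2 scale (adjusted p = 0.0465), which was lost in 20 of 37 alternatives, that without SE 24 h replicate 3 among them. Ptx3 overlaps a protein-coding gene of the other strand, Veph1, which the count table did not hold.

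Tm4sf1 (chr3:57193032-57209430, minus strand) had the largest step between consecutive SE times of any of the 10 genes. Its CPM was 8.99, 10.99 and 9.40 at Ctr 12 h, 10.3, 7.78 and 8.30 at Ctr 36 h and 12.1, 10.9 and 7.87 at Ctr 72 h. The values after SE were 33.9, 31.5 and 42.3 at 6 h, 98.3, 41.5 and 81.6 at 12 h, 823, 606 and 903 at 24 h, 511, 395 and 407 at 36 h and 67.8, 108 and 141 at 72 h. The 24 h libraries were all above the 36 h libraries, and these in turn were above those of every other time. The step from 12 h to 24 h was the largest of all 40 steps tested for the 10 genes, a log2 fold change of 3.40 ± 0.28 (adjusted p = 2.85e-06). It then fell by 2.05 ± 0.27 on the log2 scale from 36 h to 72 h (adjusted p = 8.89e-05). Neither of these calls changed in any of the 37 alternatives. The earlier rise from 6 h to 12 h (1.03 ± 0.27, adjusted p = 0.0323) was lost in 10 of them, among which were the fits without any 1 library of SE 6 h and without replicate 1 or replicate 3 of SE 12 h.

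Emp1 (chr6:135339543-135360171, plus strand), whose product belongs to the PMP22 family of membrane proteins, took a like course. Its CPM was 2.84, 3.66 and 2.05 at Ctr 12 h, 3.09, 2.30 and 3.12 at Ctr 36 h and 5.32, 17.9 and 1.5 at Ctr 72 h. After SE it was 30.8, 53.6 and 50.0 at 6 h, 57.7, 38.8 and 84.2 at 12 h, 181, 157 and 517 at 24 h, 57.7, 149 and 56.6 at 36 h and 28.8, 23.8 and 39.5 at 72 h. Ctr 72 h replicate 2 stood above the other controls but below every SE library, and SE 24 h replicate 3 was again the highest. The log2 rise from 12 h to 24 h was 2.23 ± 0.47 (adjusted p = 0.00737) and was called in all 37 alternatives, at 1.48 without SE 24 h replicate 3. Over control it was 6.21 ± 0.37 at 24 h and 5.0 ± 0.57 at 36 h, or 5.46 and 4.35 without SE 24 h replicate 3 and SE 36 h replicate 2. From 36 h to 72 h it fell by 1.53 ± 0.46 on the log2 scale (adjusted p = 0.0403), which 13 alternatives lost, that without SE 36 h replicate 2 (-0.88) among them. At 72 h the log2 fold change over control was 2.12 ± 0.55 (adjusted p = 0.00719), and 2.81 without Ctr 72 h replicate 2. It was 1.84 and not called without Ctr 72 h replicate 1, and 1.83 and not called both with limma-voom and with the label range as a factor.

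**Figure D2:**
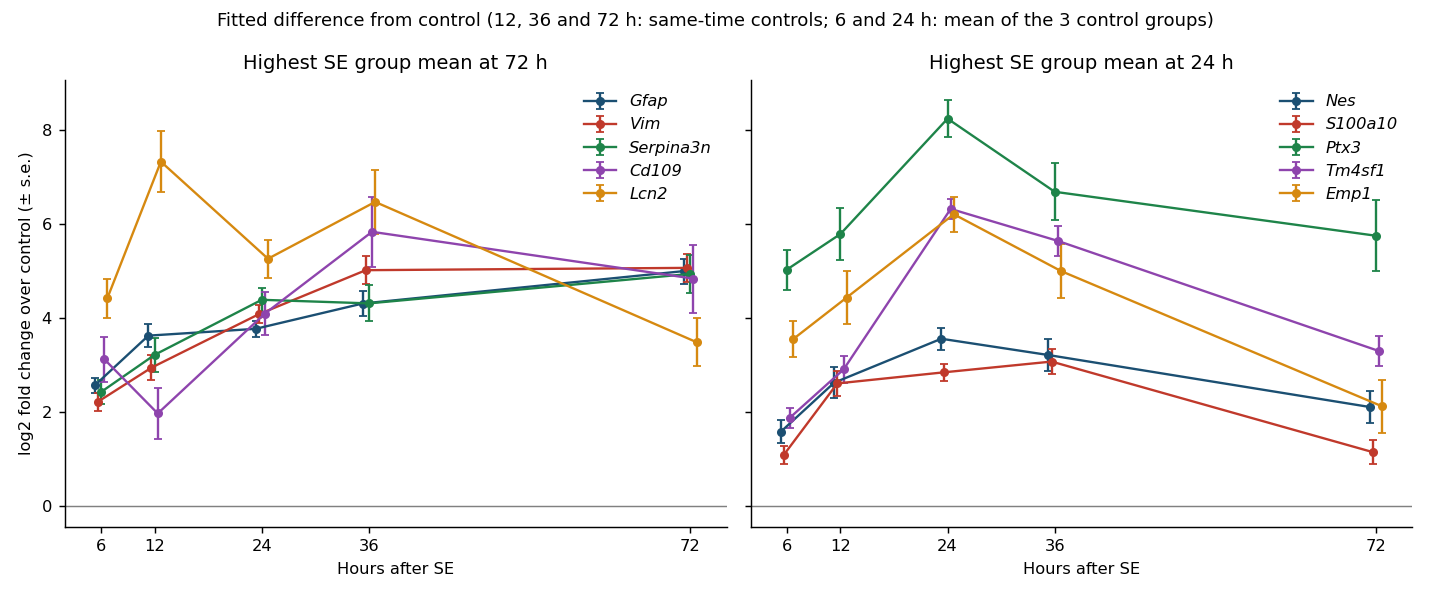
Log2 fold change over control (± standard error) against hours after SE for the 5 genes with their highest SE mean at 72 h (left) and the 5 with their highest SE mean at 24 h (right). Gfap, Vim, Serpina3n and Cd109 were near 5 at 72 h, while Ptx3, Tm4sf1 and Emp1 peaked between 6.21 and 8.24 at 24 h.

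Taking the means of the SE groups, 5 genes were highest at 72 h (Gfap, Vim, Serpina3n, Cd109 and Lcn2) and 5 at 24 h (Nes, S100a10, Ptx3, Tm4sf1 and Emp1). The places of Lcn2 and S100a10 rested on single libraries. Lcn2 averaged 56.0 CPM at 72 h and 54.3 CPM at 12 h, where its log2 fold change was larger, and was highest at 12 h without SE 72 h replicate 1 (37.8 CPM at 72 h) or without SE 12 h replicate 1 or 2. S100a10 averaged 181 CPM at 24 h and 176 CPM at 36 h, and was highest at 36 h when replicate 3 of SE 24 h or replicate 1 of SE 36 h was left out. The first kind stood at 18.1 times (Cd109) to 40.8 times (Vim) the mean of all controls at 72 h. Without Ctr 12 h replicate 3 that of Cd109 was 30.0 times, and without Ctr 72 h replicate 1 that of Lcn2 was 52.0 instead of 33.0 times. Of the second kind, Ptx3 reached 279 times, Tm4sf1 80.8 times and Emp1 61.4 times that mean at 24 h, and at 72 h they were at 12.6%, 13.6% and 10.8% of their own highest mean. Without SE 24 h replicate 3, Ptx3 reached 167 times and Emp1 36.4 times the controls, and their shares at 72 h were 21% and 18.2%. Without Ctr 72 h replicate 2, Emp1 reached 95.5 times. Nes and S100a10 kept 52.4% and 53.3%. Of the pan-reactive genes Gfap, Vim and Serpina3n were of the first kind, as was Cd109 among the 5 ischemia-associated ones.

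Between consecutive SE time points, 13 of 40 steps of these genes passed the test (adjusted p of at most 0.05 and absolute log2 fold change of at least 1). From 6 h to 12 h Gfap, Lcn2 and Tm4sf1 rose, where 1.34% of all genes changed. From 12 h to 24 h Vim, Nes, Serpina3n, Ptx3, Tm4sf1 and Emp1 rose, where 3.18% changed. From 24 h to 36 h only Ptx3 passed, falling, where 0.529% changed. From 36 h to 72 h Lcn2 rose and Tm4sf1 and Emp1 fell, where 4.13% changed. Cd109 and S100a10 had no step that passed. For S100a10, 3 steps had an adjusted p below the threshold but stayed under the fold required (0.98, 0.78 and -0.86).

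**Figure D3:**
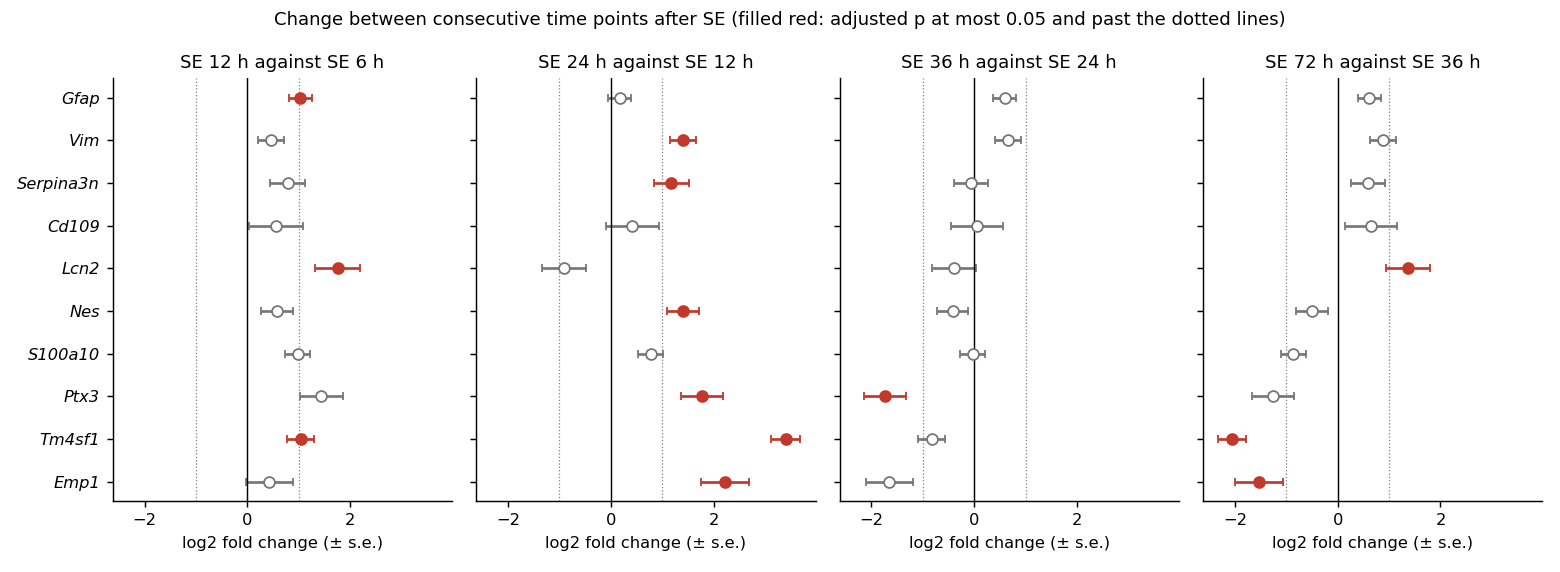
Log2 fold change (± standard error) between consecutive SE time points for each gene, with filled red points for the 13 steps that passed the test and dotted lines at the fold threshold of 1. Most of the rises that passed lie in the step from 12 h to 24 h, where Tm4sf1 moved by 3.40.

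Whether the difference between SE and control changed with time was tested as an interaction at the 3 times with controls. Between 12 h and 36 h, where 3.38% of all genes passed, the difference grew for Vim (by 2.07 ± 0.36 on the log2 scale), Cd109 (3.86 ± 0.93) and Tm4sf1 (2.73 ± 0.40). Between 12 h and 72 h, where 18.6% passed, it grew for Gfap (1.37 ± 0.32), Vim (2.12 ± 0.37), Serpina3n (1.72 ± 0.48) and Cd109 (2.86 ± 0.91). Over the same interval it shrank for Lcn2 (-3.83 ± 0.85), S100a10 (-1.46 ± 0.36) and Emp1 (-2.31 ± 0.78). Between 36 h and 72 h, where 4.81% passed, it shrank for S100a10 (-1.92 ± 0.36), Tm4sf1 (-2.34 ± 0.41) and Emp1 (-2.88 ± 0.78). Adjusted p-values of these 13 differences lay between 0.000632 and 0.0383. Without Ctr 72 h replicate 2, both differences of Emp1 (-1.56 and -2.15) and that of S100a10 from 12 h (-0.79) were no longer called, and that of S100a10 from 36 h was -1.25. That of Lcn2 was -4.77 or -3.10 without Ctr 12 h replicate 2 or 3, and was not called by limma-voom (adjusted p = 0.0655). Without Ctr 12 h replicate 3, the 2 of Cd109 (2.7 and 1.67) and that of Serpina3n (1.00) were not called. Those of Cd109 were also lost without SE 12 h replicate 2, that to 36 h without Ctr 36 h replicate 1 or 2 or SE 36 h replicate 1 or 3, and that to 72 h without replicate 1 of either 72 h group. Those of Emp1 were each lost in 10 of 37 alternatives, among them without SE 72 h replicate 1 or 2. From 12 h that was also so without Ctr 12 h replicate 1 or 3, SE 12 h replicate 3 or Ctr 72 h replicate 1, and from 36 h without any 1 control of 36 h or SE 36 h replicate 2. That of Serpina3n was lost without Ctr 72 h replicate 3 too, and that of Vim to 72 h was 2.77 without Ctr 72 h replicate 2. Without the 6 libraries with ganglion markers, which left 1 SE library at 72 h, the differences of S100a10 were -0.66 and -1.13. Those of Emp1 were -1.18 and -1.98, and from 12 h to 72 h that of Lcn2 was -4.86 and that of Vim 3.29.

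Control groups were compared as a background for these differences. Between Ctr 36 h and Ctr 12 h none of the 10 genes was called by edgeR's quasi-likelihood test, and 0.00% of all genes were. Cd109 alone had an unadjusted p under 0.05 there (log2 difference -3.38) and was called by DESeq2 and in a fit of the compared groups only, but not by limma-voom. At Ctr 72 h, 6 of the 10 genes had such a p against Ctr 12 h and 4 against Ctr 36 h. Among them were Vim (0.82 and 0.83) and Emp1 (1.36 and 1.35). The share of all genes with such an unadjusted p was not computed, and the shares below are of called genes. Without Ctr 72 h replicate 2 the differences of Vim were 0.15 and 0.15, and those of Emp1 0.64 and 0.63. Between Ctr 72 h and Ctr 12 h, where 0.931% of genes passed, Lcn2 (3.89 ± 0.72, adjusted p = 0.0168) and S100a10 (1.35 ± 0.27, adjusted p = 0.023) were higher at 72 h. The same genes were higher against Ctr 36 h (4.34 ± 0.76 and 1.06 ± 0.26), where 1.97% passed. Without Ctr 72 h replicate 2 none of the 4 was called, S100a10 differing by 0.70 and 0.40 and Lcn2 by 3.95 and 4.4 with adjusted p-values of 0.119 and 0.0523. Both calls against Ctr 12 h were also lost without Ctr 12 h replicate 1 or 3, both against Ctr 36 h without Ctr 36 h replicate 1, and that of S100a10 without Ctr 36 h replicate 2 or 3. Few counts lay behind the controls of Lcn2, whose difference was 5.88 against Ctr 36 h without replicate 2 of that group, and 4.82 or 3.16 against Ctr 12 h without its replicate 2 or 3.

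Per kilobase of the canonical transcript, the controls had Gfap at 90.1 CPM, Vim at 27.0, Serpina3n at 26.4, S100a10 at 9.20, Nes at 3.23 and Tm4sf1 at 3.01. Lcn2 (1.86), Emp1 (1.71), Cd109 (0.306) and Ptx3 (0.282) were the lowest, and the ranges of neighbours in this order overlapped throughout. The place of Lcn2 in this pooled order was its place in none of the control groups, since it was below Emp1 at Ctr 12 h (0.418) and Ctr 36 h (0.227) and above Nes, Tm4sf1 and Emp1 at Ctr 72 h (4.93). At 24 h Tm4sf1 had moved up to the fourth place (243 CPM per kilobase), behind Gfap (1232), Serpina3n (529) and Vim (390), whose 3 ranges did not overlap each other or that of Tm4sf1. Cd109 was lowest (3.39) and apart from the rest. At 72 h Gfap led with 2834, followed by Vim (1100) and Serpina3n (767), whose ranges overlapped, and the other genes were between 5.54 (Cd109) and 61.2 (Lcn2).

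Most of the other genes described in reactive astrocytes were higher as well. Of 9 further pan-reactive genes, all 9 were higher at 6, 12, 24 and 72 h and 8 at 36 h, Steap4 (log2 fold change 1.49) being the exception. Their median log2 fold change at 12, 36 and 72 h was 5.55, 4.56 and 3.67, against 0.007, 0.003 and 0.097 over all genes. The median at 72 h was 4.36 without Ctr 72 h replicate 2 and 4.397 without the 6 libraries with ganglion markers. Timp1, an inhibitor of matrix metalloproteinases, rose by 6.21 ± 0.45 at 12 h, and at 36 h its CPM averaged 157 ± 15.7 (SD, n = 3) against 0.244 ± 0.298 in controls. Cd44, the hyaluronan receptor, and Hspb1, a small heat shock protein, rose by 5.61 and 5.55 at 12 h and by 3.67 and 2.81 at 72 h. Cxcl10, a chemokine induced by interferon, had no count in the 3 controls of 12 h and at most 0.288 CPM in any control, and averaged 32.2 ± 14.9 CPM (SD, n = 3) at SE 36 h. At 12 h it was at least 71.7-fold higher, taking 3 counts over the control group as the floor.

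Of 7 further ischemia-associated (A2) genes, all 7 were higher at 6, 12, 24 and 36 h and 6 at 72 h, where Ptgs2, the inducible cyclooxygenase, had a log2 fold change of 0.89. Their median was 4.59 at 12 h and 3.69 at 72 h. Of the 12 measured genes associated with lipopolysaccharide (A1), 8, 9, 11, 10 and 11 were higher in order of time, with a median of 1.57 at 12 h and 2.32 at 72 h. Within the A1 list C3, the central complement component, rose by 3.02 at 12 h and averaged 20.2 ± 11.2 CPM (SD, n = 3) at 72 h against 0.284 ± 0.492 CPM in controls, and Serping1, an inhibitor of complement C1, rose by 1.73 and 2.71. Amigo2 was the exception in falling at 12 h and 24 h by 2.39 and 1.23 on the log2 scale, its highest control at 12 h being 51.0 CPM, and the latter call was lost without Ctr 72 h replicate 2. Without the 6 libraries with ganglion markers, 8 of 9 pan-reactive and 9 of 12 A1 genes were higher at 72 h.

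**Figure D4:**
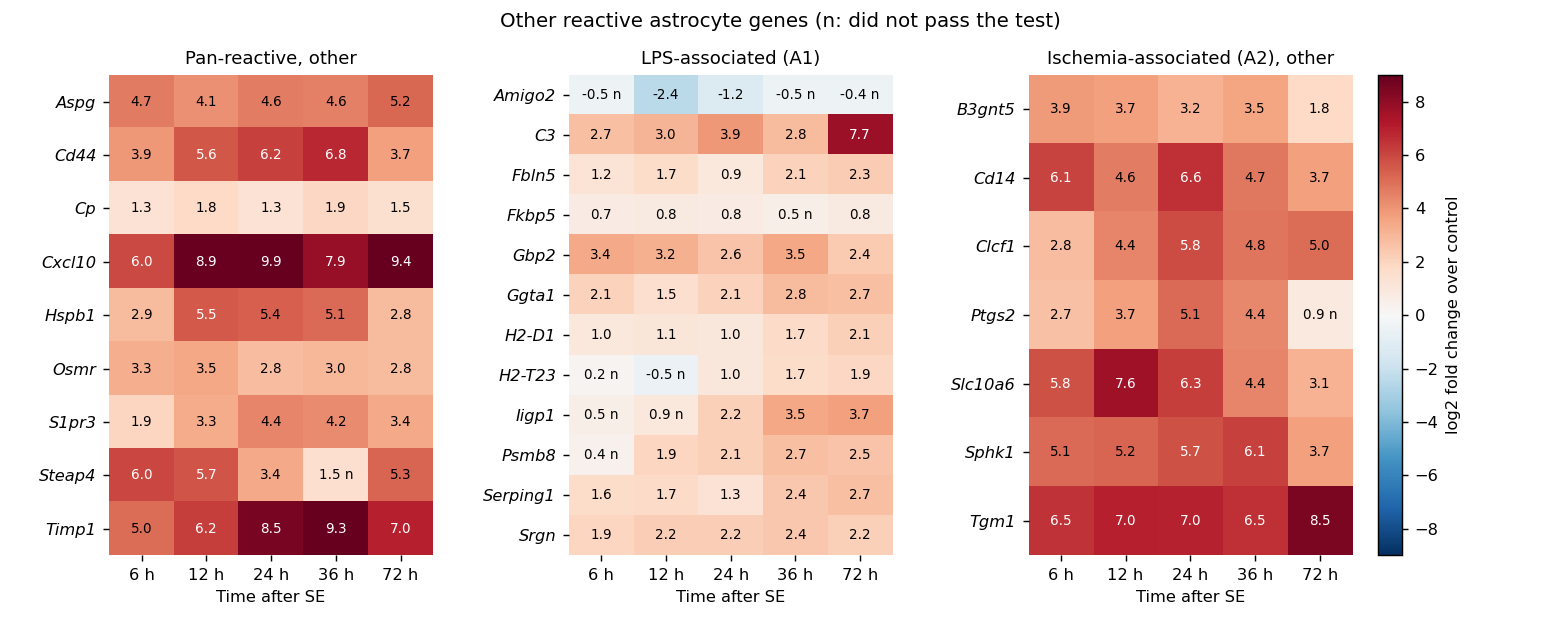
Log2 fold change over control at each time after SE for 9 further pan-reactive, 12 LPS-associated (A1) and 7 further ischemia-associated (A2) genes, with colour from blue (lower) to red (higher) and n for values that did not pass the test. Nearly all cells are red at all 5 times, Amigo2 is the one gene with calls in the lower direction, and the values of Cxcl10 at 12 h rest on controls without a count.

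Of 18 inducers and signalling genes of reactive astrocytes, 17 were kept by the filter on low counts and tested. Among those tested, 13, 13, 15, 12 and 15 were higher in order of time, and none was lower. Without Ctr 72 h replicate 2 the count at 72 h was 12. At 12, 36 and 72 h Stat3, the transcription factor downstream of IL-6 family cytokines, rose by 2.12, 2.50 and 1.73. Its feedback inhibitor Socs3 rose by 5.38, 6.38 and 4.68, and the IL-6 family cytokine Lif by 6.30, 5.53 and 4.11. Lifr, the receptor subunit for Lif, had log2 fold changes of 0.12, 0.60 and 0.24 that did not pass the test.

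The markers of astrocytes in general moved in both directions. Of 12, 1 was higher and 1 lower at 6 h. Then 2 were higher and 3 lower at 12 h, 2 and 6 at 24 h, 5 and 5 at 36 h, and 5 and 0 at the last time. Of all genes tested, 6.21% were lower at 6 h, 11.4% at 12 h, 9.21% at 24 h, and 8.91% and 4.21% at the later times. The glutamate transporter gene Slc1a2 fell by 1.3 on the log2 scale at 36 h, as did the connexin gene Gja1 by 1.32 and the glycolytic gene Aldoc by 1.53. At the same time Aqp4, the water channel of astrocyte endfeet, rose by 1.92 and reached 2.56 at 72 h, while the potassium channel gene Kcnj10 rose by 0.95 and 2.12. Summed over the list, the level was 6460 to 7950 CPM in controls. After SE it was 4210 to 4270 CPM at 24 h, 4000 to 5030 CPM at 36 h and 8530 to 8650 CPM at 72 h.

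Markers of other cell types that may express some of the 10 genes moved as well. All 10 microglial markers were higher at 72 h (9 without Ctr 72 h replicate 2), and their sum was 1430 to 2090 CPM there against 328 to 420 CPM in the controls of that time. At 12 h 1 was higher and 2 were lower, with sums of 281 to 390 CPM after SE and 346 to 368 CPM in controls. Of 10 endothelial markers 6 were higher and 1 lower at 12 h, and 4 were higher at 72 h (1 without the 6 libraries with ganglion markers), with sums of 502 to 575 CPM at SE 72 h against 308 to 386 CPM in controls. Fibroblast and meningeal markers were higher for 1 of 8 at 12 h and 4 of 8 at 36 h, and for 1 at 72 h (3 without Ctr 72 h replicate 2). None of these 3 lists had a marker at 0 in a whole group. Of 6 ependymal markers 3 were higher at 72 h, with sums of 12.7 to 32.2 CPM against 2.62 to 17.7 CPM in controls, in which 2 of the 6 had no count. Of 12 neuronal markers 4 were lower at 72 h (5 without Ctr 72 h replicate 2 and 1 without the 6 libraries with ganglion markers), with sums of 8870 to 9350 CPM against 13000 to 13700 CPM. The part of these cells in the levels of the 10 genes was not tested.

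**Figure D5:**
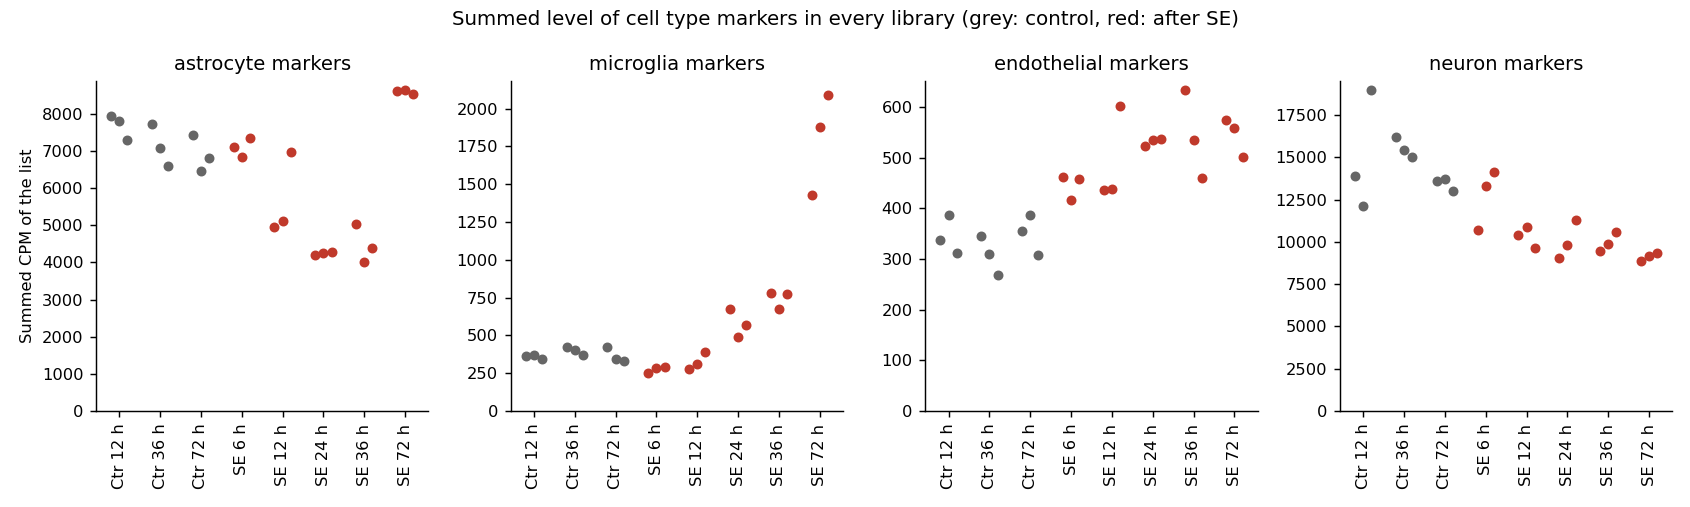
Summed CPM of the astrocyte, microglia, endothelial and neuron marker lists in every library by group, on axes that start at 0, with grey points for controls and red points for SE libraries. The astrocyte sum is lowest at SE 24 h and SE 36 h and highest at SE 72 h, where the microglial sum is highest too.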

How the data were processed

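RNA of microdissected CA1 was sequenced as paired ends from polyA libraries. The authors trimmed reads (Trim Galore 0.6.6), aligned them to GRCm39 (STAR 2.7.8a) and deposited raw counts per GENCODE gene from htseq-count (HTSeq 0.13.5), without strand. Totals of 2663936 to 30133731 per library limit the precision of genes with few counts. Of 18647 genes, 18552 were matched to GENCODE symbols. Groups came from the labels. The 18153 genes kept by filterByExpr were scaled by TMM and fitted over all 24 libraries (group means plus 1 RUVr factor) and tested by edgeR's quasi-likelihood test (edgeR 4.0.16, R 4.3.3) with Benjamini-Hochberg adjustment. The standard error is the absolute log2 fold change divided by the square root of F. The test was tried on simulated data first. The genes and lists were chosen with earlier results of these data known. All 10 genes were named, counts were given for whole lists, and genes named from lists illustrate roles. Similar genes were the 3 nearest outside the 10 genes by root mean square difference of log2 CPM (prior count 2). This was taken over the 15 SE libraries, relative to the control mean, at a mean log2 CPM of at least 1. Alternatives were DESeq2 1.42.0, limma-voom (limma 3.58.1), other scalings, filters and thresholds, no RUVr factor, compared groups only, label range, replicate block, and each library left out. Leaving out the 6 libraries highest in ganglion markers was chosen after seeing the data. After removal of group means, same-numbered SE and control libraries of the same time correlated by -0.201 to 0.181. All 84 same-numbered pairs correlated by -0.348 to 0.399. With 3 libraries per group this cannot exclude a pairing, and the main fit used none.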

Additional observations from a re-analysis of the deposited data

Results flagged for a closer look

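In 13 of 30 tests of an interaction, the difference between SE and control was itself different between time points, given here as the change of the log2 fold change. Among the filament genes Gfap gained 1.37 from 12 h to 72 h and Vim 2.07 from 12 h to 36 h and 2.12 from 12 h to 72 h, whereas no difference of Nes (0.59, -0.52 and -1.10) passed the test. Serpina3n, the protease inhibitor, gained 1.72 from 12 h to 72 h, and Cd109 gained 3.86 to 36 h and 2.86 to 72 h. Tm4sf1 gained 2.73 from 12 h to 36 h and changed by -2.34 from 36 h to 72 h. Lcn2 changed by -3.83 from 12 h to 72 h. S100a10 changed by -1.46 from 12 h and by -1.92 from 36 h to 72 h, and Emp1 by -2.31 and -2.88 over the same intervals. These values take in the change of the controls, which on the log2 scale was 3.89 for Lcn2 and 1.35 for S100a10 from 12 h to 72 h. It was 1.36 for Emp1 over that interval and -3.38 for Cd109 from 12 h to 36 h, neither of which was called.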

How the results depend on the processing

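Of 1850 values of the 10 genes against control under the alternatives, 1841 stayed on the same side of the threshold, 9 lost their call and 0 changed direction. Some of this agreement was given in advance, since dropping the fold threshold cannot lose a call. Many of the fits with a library left out also removed one outside the compared groups. Leaving out 1 library gave 10 to 10 genes called at 6, 12, 24 and 36 h and 8 to 10 at 72 h, with 8 without Ctr 72 h replicate 1. With the label range as a factor 8 genes were called at 72 h. The 13 calls between consecutive SE time points became 7 at an absolute log2 fold change of at least 1.5 and 7 with the compared groups only, and were 9 to 17 with 1 library left out (9 without SE 6 h replicate 3, 17 without Ctr 72 h replicate 2). The 13 differences between time points became 8 with limma-voom and 9 to 14 with 1 library left out (9 without Ctr 12 h replicate 3). The 4 calls between controls became 2 at the stricter fold, 2 with no RUVr factor, 7 with DESeq2, 0 with limma-voom, 0 without the 6 libraries with ganglion markers and 0 to 6 with 1 library left out (0 without Ctr 72 h replicate 2, 6 without Ctr 72 h replicate 1). The causes were not tested. With the replicate number as a block, 10 genes were called at each time, with 15 steps, 14 differences and 4 control calls. Scaling by library size only moved the median of all genes to 0.127 at 36 h and 0.142 at 72 h. Few control counts limit the fold changes of Lcn2, Cd109 and Ptx3.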

Other observations

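Other genes followed the courses of the 10 genes closely over the 15 SE libraries, measured as the root mean square difference of their log2 levels relative to control, which is a description over libraries that share controls. The 10 genes themselves were left out of the search. Vim was nearer to Serpina3n (0.504), and Cd109 to Gfap (0.514), than to any gene named here. Capg, which encodes an actin-capping protein, was the nearest other gene to Gfap (0.441), Vim (0.558) and Serpina3n (0.396). Nearest to Nes was Pdpn (0.403), the gene of the membrane glycoprotein podoplanin. S100a10 was nearest to Arhgdib (0.368) and Npy (0.384), the latter encoding neuropeptide Y. The transient genes had less close neighbours, with Flnc (0.834) for Ptx3, Has2 (0.960), a hyaluronan synthase, for Tm4sf1 and Plaur (0.658), the urokinase receptor, for Emp1. Lcn2 was nearest to Serpinf2 (0.817) and Cd109 to Ms4a6d (0.605).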
